A study of Mus musculus with 273 samples.

Results

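The miRNAs of mouse cortex were compared between ZT0 and ZT12, opposite points of the day. ZT0 is by convention the time of lights on, when a nocturnal mouse ends its active phase, and ZT12 the time of lights off, when it ends its rest phase. The labels used here give no lighting schedule. The 24 libraries were those labelled cortex and taken at 0 or 24 h (ZT0, 12 libraries) or at 12 or 36 h (ZT12, 12 libraries), out of 78 cortex libraries and 273 in all. Both groups came from wild-type male C57BL/6J mice, an inbred laboratory strain, aged 26 weeks, with no drug or other treatment named, and the tissue was the right cortex. Each of the 24 libraries carried its own animal code, so a ZT group is 12 mice, 6 from each of a pair of collections 24 h apart. Small RNA was sequenced, and the deposited values were whole-number counts of reads per miRNA hairpin.

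A miRNA is cut from a hairpin transcript into a short mature strand. Its seed, bases 2 to 8 from the 5′ end, pairs with target mRNAs, which are then repressed or degraded. Core clock genes are themselves targets of several miRNAs, and others, such as miR-132 and miR-219, have been tied to light and to the clock in the suprachiasmatic nucleus, the hypothalamic pacemaker. Cortex is not the pacemaker: its daily changes in gene expression follow both the clock and the time spent awake or asleep.

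The sequences shown here belong to the hairpin that the comparison turned on and to mature strands of hairpins described below, with the seed in capitals; they were taken from RefSeq (GRCm38.p6), and 1 hairpin, miR-5099, is given whole and without a marked seed since the table used held no mature strand for it.
miR-5099 hairpin: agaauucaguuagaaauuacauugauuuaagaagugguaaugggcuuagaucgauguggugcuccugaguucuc
miR-135a-5p: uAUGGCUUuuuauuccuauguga
miR-181a-5p: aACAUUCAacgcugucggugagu
miR-451a: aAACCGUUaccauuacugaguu
miR-204-5p: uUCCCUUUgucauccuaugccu
miR-211-5p: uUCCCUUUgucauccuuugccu
miR-96-5p: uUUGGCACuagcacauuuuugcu
miR-182-5p: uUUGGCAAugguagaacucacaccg
miR-183-5p: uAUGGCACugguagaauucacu
Among these miR-204 and miR-211 share their seed and differ at 1 of 22 bases. The seeds of miR-96 and miR-182 differ at 1 base, as do those of miR-96 and miR-183, while those of miR-182 and miR-183 differ at 2.

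The libraries held 1164449 to 4434691 counts at ZT0 (median 3404560) and 2673459 to 4508814 at ZT12 (median 3513127.5). Levels are given in CPM, a count relative to the library's total after TMM scaling. A count of 0 allows up to 3 counts, for counting error only. Relative to the totals without TMM scaling, that is 0.676 to 2.58 CPM at ZT0 and 0.665 to 1.12 CPM at ZT12. Of 1226 hairpins 378 passed the filter on low counts and were tested, and they held at least 99.959% of each library's counts. ZT0 replicate 1 stood apart from the rest: miR-204, abundant in choroid plexus, had 40118 CPM there, against 3626 to 8361 CPM in the other 23 libraries. ZT12 replicate 4 held the most miR-183 cluster miRNA, and ZT0 replicate 5 had the lowest total and the most rRNA-like reads. Of the liver markers miR-122, the main miRNA of hepatocytes, was near 0 in every library, at 0.58 to 3.24 CPM. The 4 of the 6 markers that were tested, which include miRNAs that brain also holds, summed to 4600 to 7808 CPM at ZT0 and 5582 to 7448 CPM at ZT12. The neuron marker miR-128-1 (6188 to 18525 CPM) and the oligodendrocyte marker miR-338 (3843 to 5713 CPM) were present in every library. Not all members of their lists passed the filter on low counts: 9 of 12 neuronal and 3 of 4 oligodendrocyte miRNAs did.

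Of 378 hairpins, 1 differed between ZT0 and ZT12 (0.265%). It was miR-5099, encoded at chr12:36816205-36816278 on the plus strand of GRCm38, where GENCODE M21 has no other gene. Its level at ZT0 was 0.733-fold that at ZT12 (95% interval 0.676 to 0.796). No other hairpin passed. For most of them the data bounded the difference to within 1.5-fold, a range that also holds the difference of miR-5099.

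miR-5099 stood at 60.5, 62.8, 61.4, 72.8, 70.9 and 75.6 CPM in the ZT0 libraries taken at 0 h, and at 72.9, 55.8, 67.4, 72.4, 74.9 and 62.8 CPM in those taken at 24 h. The ZT12 libraries had 85.0, 90.3, 99.6, 83.8, 93.8 and 89.0 CPM at 12 h, and at 104.5, 88.1, 89.5, 92.6, 97.6 and 91.2 CPM at 36 h. Each of the 12 ZT0 libraries lay below each of the 12 ZT12 libraries, and miR-5099 was the 1 tested hairpin for which the groups did not overlap (0.265%). The means were 67.5 ± 6.60 CPM at ZT0 and 92.1 ± 6.04 CPM at ZT12 (SD, n = 12 each). The log2 ratio of ZT0 over ZT12 was -0.45 ± 0.06 (SE), with a 95% interval of -0.57 to -0.33 and adjusted p = 1.335e-05 by edgeR's quasi-likelihood test with Benjamini-Hochberg adjustment. These levels rested on 72 to 288 reads per library at ZT0 and 230 to 500 at ZT12. In bulk tissue, fewer cells that hold a miRNA and less of it per cell cannot be told apart.

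**Figure D1:**
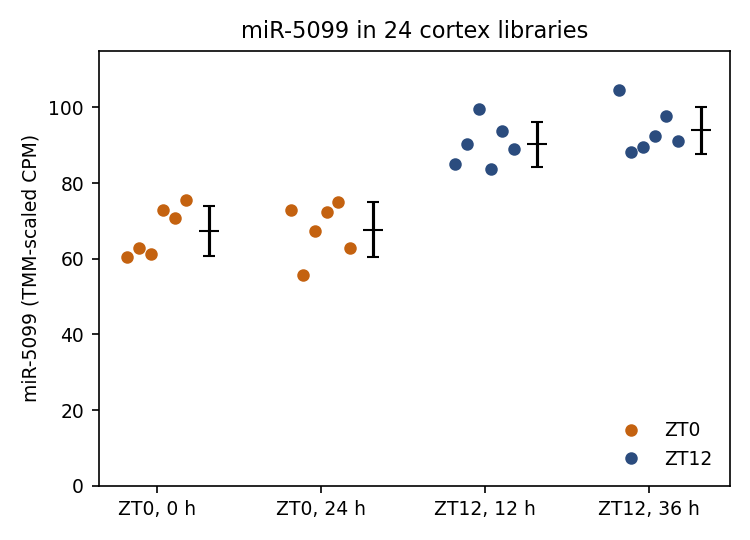
TMM-scaled CPM of miR-5099 (vertical axis) in each cortex library, by collection time (horizontal axis); points are libraries, and black marks give the mean and SD of 6. The ZT0 libraries lie between 55.8 and 75.6 CPM and the ZT12 libraries between 83.8 and 104.5 CPM.

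miR-5099 ranked 199 of 378 in abundance, so its place was not that of a leading cortex miRNA. Relative to the spread of libraries within a group it had the largest difference of the 378 tested. The log2 ratios of hairpins such as miR-96 and miR-6240 were larger, but so was the spread of their libraries. The relation of ratio to abundance over the whole set is plotted here.

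**Figure D2:**
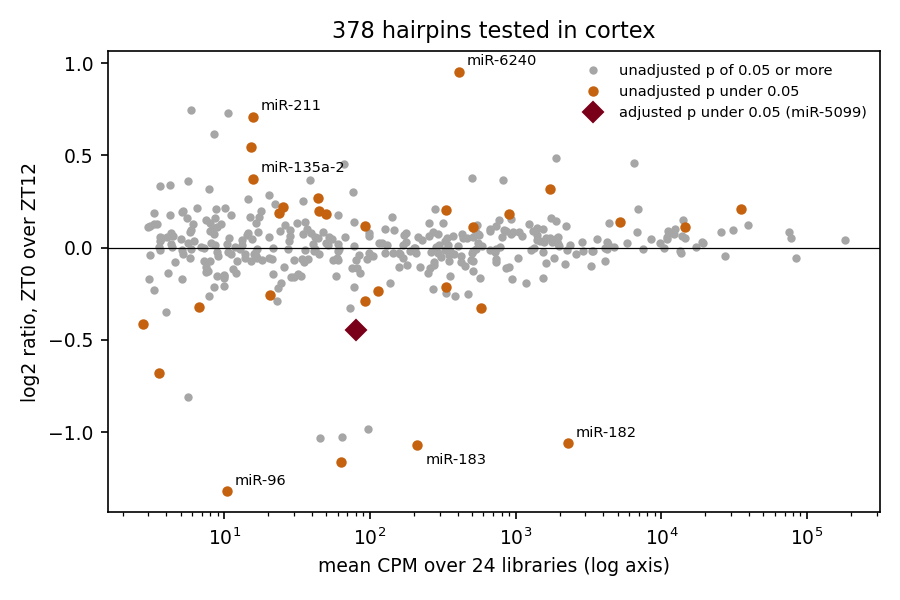
Log2 ratio of ZT0 over ZT12 (vertical axis) against mean CPM on a log axis for 378 tested cortex hairpins; colour marks the unadjusted and adjusted p by edgeR. Most points lie close to 0, miR-5099 is the called hairpin, and the ratios farthest from 0 on either side, those of miR-96 below and miR-6240 above, carry wide intervals.

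The mean of miR-5099 was lower at ZT0 in both collections, and the difference passed in the second. With groups that did not overlap, the means of neither collection could show the other direction. In the first, at 0 and 12 h, the means were 67.3 ± 6.52 CPM at ZT0 and 90.2 ± 5.86 CPM at ZT12 (SD, n = 6 each), and the log2 ratio was -0.39 ± 0.09 (SE; adjusted p = 0.245 by edgeR). In the second, at 24 and 36 h, they were 67.7 ± 7.30 CPM at ZT0 and 93.9 ± 6.14 CPM at ZT12, and the ratio was -0.49 ± 0.09 (adjusted p = 0.0478 by edgeR). The difference between the ratios of both collections did not pass the test (adjusted p = 0.992 by edgeR, with 0 of 395 hairpins called and 19, or 4.81%, at an unadjusted p under 0.05). With 6 mice a side edgeR called 0 of 375 hairpins in the first collection and 1 of 378 (0.265%) in the second, with 27 (7.2%) and 11 (2.91%) at an unadjusted p under 0.05. Without a filter on low counts the call in the second collection ended (adjusted p = 0.184).

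Library runs were inferred, since no label names them: a run was taken as a stretch of consecutive library numbers with 1 L code, a code whose meaning the labels do not state and which recurs in several stretches. These inferred runs did not fall evenly over the groups, and 5 of the 9 held libraries of both times. In each of these 5, with 1 to 3 libraries a side, the mean of miR-5099 was lower at ZT0, by a log2 ratio of -0.67 to -0.26. Because its groups did not overlap, no run could show the other direction. With run as a term the ratio was -0.44 (adjusted p = 0.00464 by edgeR), and in the 5 shared runs alone -0.45 (adjusted p = 0.0298). With ZT0 replicate 1 and ZT12 replicate 4 left out and run as a term, an alternative added after the data were seen, the ratio was -0.40 and the call ended (adjusted p = 0.116); without those 2 libraries and ZT0 replicate 5, with no run term, it was -0.42 (adjusted p = 7.743e-04). The part of the run in the result was not tested beyond these fits.

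The other cortex times place these levels within the day. Scaled over the 78 cortex libraries, miR-5099 averaged 66.9 ± 6.54 CPM at ZT0 (SD, n = 12), 89.0 ± 14.2 at ZT3, 91.1 ± 16.2 at ZT6, 91.1 ± 16.5 at ZT9 and 91.3 ± 5.98 at ZT12 (n = 12 each), then 78.5 ± 17.5 at ZT15, 68.3 ± 7.65 at ZT18 and 63.1 ± 9.83 at ZT21 (n = 6 each). The levels at ZT18, ZT21 and ZT0 lay within 1 SD of each other, as did those from ZT3 to ZT12. ZT0 and ZT12 thus came from the low and the high side of this profile, which is given here as a description.

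The same mice allowed the contrast to be set beside that of other tissues. In hypothalamus miR-5099 had 44.5, 58.5 and 83.3 CPM as the lowest, median and highest value at ZT0, and 71.2, 85.2 and 121.6 CPM at ZT12 (n = 12 each). Here the groups overlapped, with 9 of 12 ZT0 libraries below every ZT12 library. The log2 ratio was -0.55 ± 0.11 (SE; adjusted p = 0.00528 by edgeR), 1 of 3 calls among 353 hairpins (0.85%; 16, or 4.53%, had an unadjusted p under 0.05). In striatum, with 7 mice at ZT0 and 9 at ZT12, the values were 31.3, 47.2 and 73.4 CPM at ZT0 and 44.9, 77.0 and 105.9 CPM at ZT12, and the ratio was -0.55 ± 0.21 (adjusted p = 0.794 by edgeR, which called 0 of 347 hairpins there, with 13, or 3.75%, at an unadjusted p under 0.05). In liver the level was higher than in brain, 199.9, 269.6 and 365.1 CPM at ZT0 and 230.5, 295.6 and 361.7 CPM at ZT12, and the ratio was -0.12 ± 0.10 (95% interval -0.32 to 0.08; adjusted p = 0.767 by edgeR, which called 0 of 228 hairpins, with 14, or 6.14%, at an unadjusted p under 0.05).

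**Figure D3:**
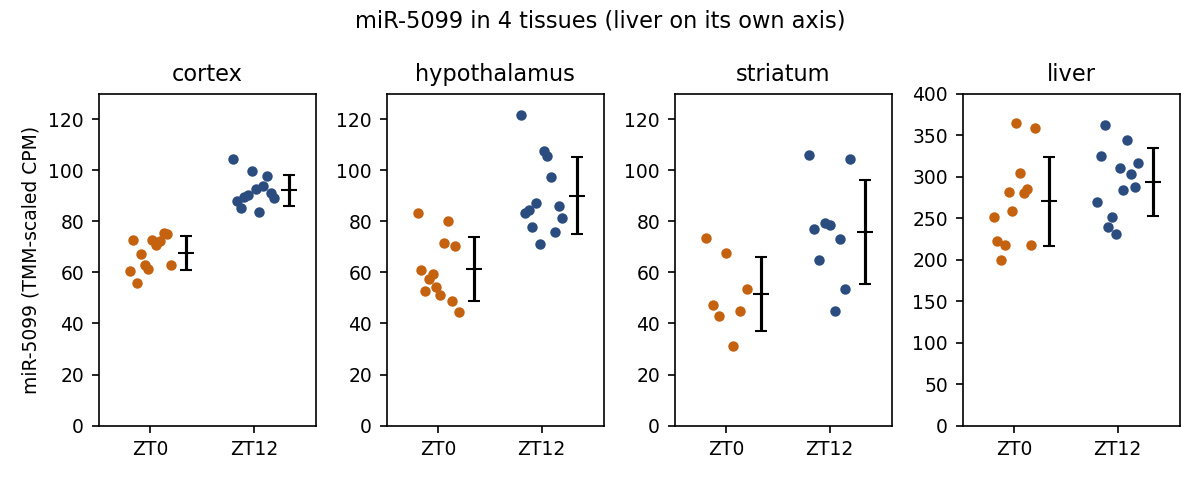
TMM-scaled CPM of miR-5099 (vertical axes, scaled within each tissue; liver has its own range) at ZT0 and ZT12 in cortex, hypothalamus, striatum and liver; points are mice, black marks the mean and SD. The groups are apart in cortex and overlap in the other tissues.

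None of these tissues was shown to differ from cortex in the contrast. The cortex ratio minus that of the other tissue, within the same animals, was 0.10 ± 0.12 for hypothalamus (SE; 95% interval -0.14 to 0.34), 0.13 ± 0.24 for striatum (-0.38 to 0.64) and -0.22 ± 0.12 for liver (-0.47 to 0.02). The smallest unadjusted p of these by edgeR was 0.0710, for liver. Over the whole tables edgeR called 0 of 391, 396 and 397 hairpins as different from cortex in hypothalamus, striatum and liver, with 10 (2.56%), 16 (4.04%) and 25 (6.3%) at an unadjusted p under 0.05. With no animal block the hypothalamus comparison called miR-375. Its hypothalamus libraries at ZT0 ran from 432 to 137420 CPM, with a mean below its SD (12545 ± 39356 CPM, n = 12). At ZT12 they ran from 303 to 1372.5 CPM.

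For the other 377 hairpins the width of the interval says how large a difference could have been missed. The 95% interval lay within 1.5-fold in either direction for 328 of the 378 (86.8%) and within 2-fold for 356 (94.2%). Among the 186 with a mean of at least 100 CPM these numbers were 175 (94.1%) and 180 (96.8%). The median absolute log2 ratio was 0.0759 and the median of the signed ratios 0.0163. At an unadjusted p under 0.05 there were 30 hairpins (7.94%), 17 higher (4.5%) and 13 lower (3.44%) at ZT0.

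The 5 most abundant hairpins had ratios close to 0. miR-127, from the imprinted Dlk1-Dio3 region, held 18.1% ± 1.99 of the counts at ZT0 and 18.1% ± 1.13 at ZT12 (SD, n = 12 each), with a log2 ratio of 0.04 and a 95% interval of -0.08 to 0.17. miR-434, its neighbour, had 0.08 (-0.07 to 0.24), miR-22, found in many tissues, -0.06 (-0.17 to 0.05), miR-30a 0.05 (-0.10 to 0.20) and miR-27b 0.12 (-0.03 to 0.27). None passed the test, and each interval lay within 1.5-fold in either direction. Together these 5 held 45.6% ± 1.47 of the counts at ZT0 and 45.8% ± 0.499 at ZT12.

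After miR-5099 the hairpins with the smallest p were miR-135a-2 and miR-181a-2, both with higher values at ZT0, and neither passed. miR-135a-2 (chr10:92072086-92072185, minus strand), in an intron of the long noncoding RNA gene Rmst, had 14.8, 16.9 and 22.8 CPM as the lowest, median and highest value at ZT0 and 11.02, 12.8 and 18.7 CPM at ZT12. Each of the 12 ZT0 libraries lay above the ZT12 median, and 9 of the 12 ZT12 libraries lay below every ZT0 library. The log2 ratio was 0.37 ± 0.09 (SE; 95% interval 0.18 to 0.57; adjusted p = 0.103 by edgeR). The counts behind it were low, 17 to 81 reads at ZT0 and 31 to 65 at ZT12. Of the 5 shared runs 4 had the higher mean of miR-135a-2 at ZT0. Without ZT12 replicate 7, which held the highest ZT12 value, it passed (0.42, adjusted p = 0.0147); over the alternatives its adjusted p ran from 0.0147 to 0.993.

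By edgeR, miR-135a-2 and miR-5099 had an unadjusted p under 0.05 in the same direction in both collections. Among hairpins tested in both, 27 had such a p in the first collection and 9 in the second. The collections are parts of the 24 libraries in which these hairpins had the smallest p, so this is no separate support. The ratio of miR-135a-2 was 0.44 at 0 and 12 h and 0.33 at 24 and 36 h. Over the 370 hairpins tested in both collections the ratios had r = 0.343 (Spearman's rho 0.0929) and the same sign in 52.2%. These describe hairpins, which are not independent replicates. The other copy, miR-135a-1, whose 5′ mature strand carries the same name, averaged 9.14 ± 3.26 CPM at ZT0 and 7.98 ± 2.15 CPM at ZT12, with a ratio of 0.16 ± 0.19 (SE; adjusted p = 0.937 by edgeR). How reads shared by copies were counted was not stated, so values of the copies are uncertain.

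miR-181a-2 (chr2:38852735-38852810, plus strand), in an intron of Nr6a1 on the opposite strand, belongs to a family abundant in brain and in lymphocytes. It had 276.0, 353.6 and 430.7 CPM as the lowest, median and highest value at ZT0 and 288.7, 304.4 and 344.3 CPM at ZT12. In 9 of 12 ZT0 libraries it was above every ZT12 library, and in 1, replicate 2, below them all. Its log2 ratio was 0.21 ± 0.06 (SE; adjusted p = 0.234 by edgeR). Of the 5 shared runs 4 had the higher mean at ZT0. It passed in limma voom with quality weights (0.22, adjusted p = 0.0287), and over the alternatives its adjusted p ran from 0.0287 to 0.993. The copy miR-181a-1, at 1578 ± 228 CPM at ZT0 and 1544 ± 168 CPM at ZT12 (SD, n = 12 each), had 0.03 ± 0.08 (SE; adjusted p = 0.969).

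**Figure D4:**
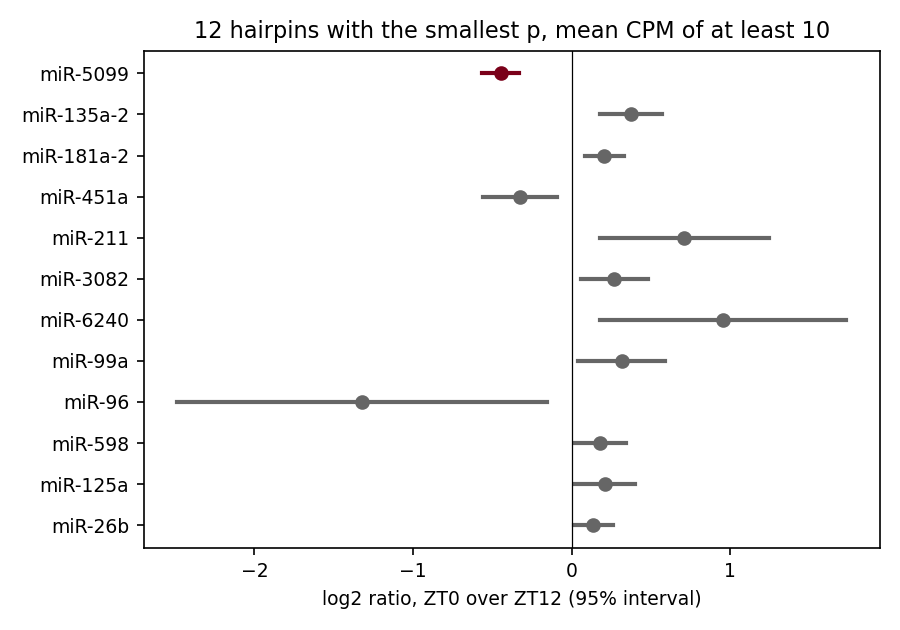
Log2 ratio of ZT0 over ZT12 with its 95% interval (horizontal axis) for the 12 cortex hairpins with the smallest p among those with a mean of at least 10 CPM, smallest p at the top. miR-5099 passed after adjustment over 378 hairpins, and miR-96 and miR-6240 have the widest intervals.

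The remaining 9 of these 12 each had adjusted p = 0.582 by edgeR, and their groups overlapped. With higher values at ZT0 were miR-211 (0.71 ± 0.26, SE), miR-6240 (0.95 ± 0.38), miR-99a (0.32 ± 0.13), miR-3082 (0.27 ± 0.10), miR-125a (0.21 ± 0.09), miR-598 (0.18 ± 0.08) and miR-26b (0.14 ± 0.06). miR-99a lies in an intron of Mir99ahg on chromosome 16, and miR-125a in an exon of Spaca6 on chromosome 17. miR-125a was abundant, at 37877 ± 7839 CPM at ZT0 and 32741 ± 3293 CPM at ZT12 (SD, n = 12 each), with a ratio of 0.39 in the first collection and 0.02 in the second. miR-99a likewise had 0.54 in the first and 0.07 in the second. With the inferred run as a term several of these ratios were close to 0: 0.10 for miR-6240, 0.02 for miR-99a and 0.07 for miR-125a, with 0.15 for miR-598, 0.12 for miR-26b, 0.22 for miR-3082 and 0.81 for miR-211. Of the 5 shared runs 2 had the higher mean at ZT0 for miR-6240, miR-598 and miR-125a, 3 for miR-211, miR-99a and miR-26b, and 5 for miR-3082. The part of the run was not tested beyond these fits. With lower values at ZT0 were miR-451a and miR-96.

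miR-451a is the main miRNA of red blood cells and so a marker of the blood left in the tissue. It had 364.5, 494.7 and 702.4 CPM as the lowest, median and highest value at ZT0 and 417.2, 641.0 and 919.0 CPM at ZT12, and its ratio was -0.33 ± 0.11 (SE; edgeR adjusted p = 0.582). The groups overlapped, though 10 of 12 ZT0 libraries were below the ZT12 median, and its mean was lower at ZT0 in 5 of the 5 shared runs. miR-144, made with it, had -0.22 ± 0.14, and -0.47 with the inferred run as a term. Of the 4 red blood cell miRNAs none was called, against 0.265% over all tested. All 4 had a negative ratio, as did 169 of 378 over all tested, and their median was -0.217 against 0.0163. Their summed level ran from 437 to 826 CPM at ZT0 and from 505 to 1079 CPM at ZT12. The part of blood content in other results was not tested.

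The miR-183 cluster, known from sensory cells of the eye, ear and nose, and the miR-200 family, known from epithelia and olfactory neurons, had the lowest ratios of the lists examined. None of the 3 and 5 members was called, against 0.265% over all tested. The 8 ratios were negative, with medians of -1.07 and -1.03, as were 169 of the 378 over all tested. By edgeR 3 of the 3 and 1 of the 5 had an unadjusted p under 0.05, against 7.94% over all tested. miR-96 had 0 to 19.2 CPM at ZT0 (median 4.40) and 1.62 to 78.1 CPM at ZT12 (median 7.42), and its ratio was -1.32 ± 0.57 (SE; edgeR adjusted p = 0.582). The library with no read of it allowed up to 2.58 CPM, without TMM scaling. miR-182 had 208 to 4673 CPM at ZT0 (median 1387) and 383 to 12210 CPM at ZT12 (median 2294), a ratio of -1.06 ± 0.51, and miR-183 had -1.07 ± 0.52. In the miR-200 family miR-200a had -1.03 ± 0.59 and miR-429 -0.98 ± 0.55.

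The highest value at ZT12 came from replicate 4 for both groups of miRNAs. The summed miR-183 cluster ran from 237 to 5129 CPM at ZT0 and from 417 to 13367 CPM at ZT12, and the miR-200 family from 40.2 to 556 CPM at ZT0 and from 33.9 to 1563 CPM at ZT12. Without ZT12 replicate 4 the ratio was -0.62 for miR-182, -0.66 for miR-183, -0.59 for miR-96, -0.49 for miR-200a and -0.49 for miR-429, with adjusted p of 0.956 to 0.994 by edgeR. With the inferred run as a term and that library kept, they were farther from 0. They were -1.41 for miR-182, -1.55 for miR-183, -1.86 for miR-96, -1.78 for miR-200a and -1.66 for miR-429, with adjusted p of 0.518 to 0.524 by edgeR. The mean of miR-96 was lower at ZT0 in 5 of the 5 shared runs. With run as a term but without ZT12 replicate 4 and ZT0 replicate 1, the ratios in this order were -0.58, -0.76, -0.90, -1.23 and -1.05 (adjusted p = 0.993 by edgeR). In limma voom with quality weights they were -0.54, -0.42, -0.74, -0.29 and -0.32. The SD of log2 levels within a time was 1.36 for miR-182 and 1.28 for miR-96, the spread against which these ratios stand. The part of neighbouring tissue carried along in dissection was not tested.

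**Figure D5:**
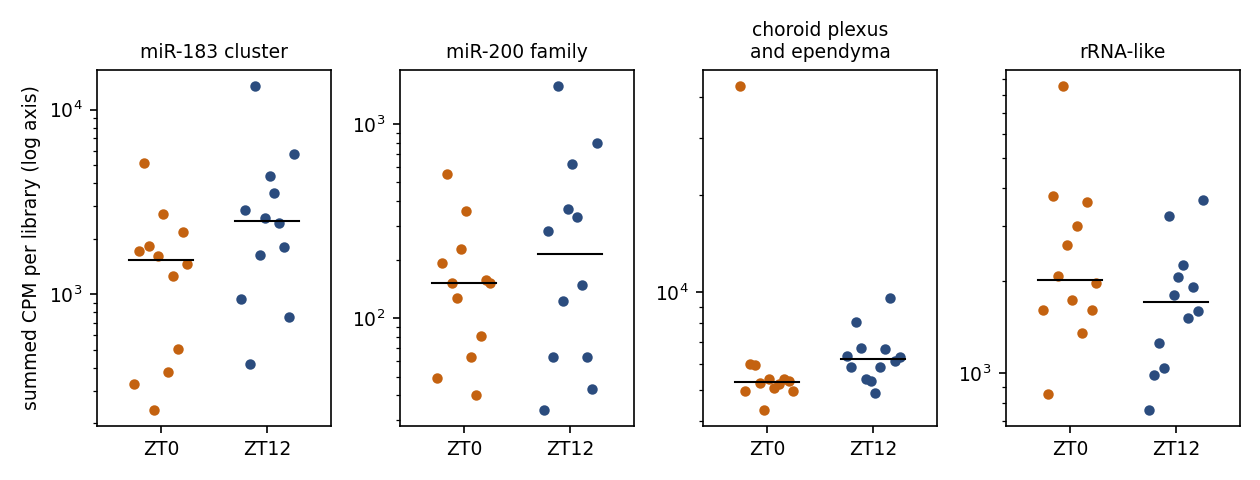
Summed CPM per library (vertical axes, log scale) of the miR-183 cluster, the miR-200 family, the choroid plexus and ependyma list and the rRNA-like hairpins at ZT0 and ZT12; points are cortex libraries, lines medians. The groups overlap in each panel, and ZT0 replicate 1 has the highest choroid plexus sum, 43197 CPM.

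miRNAs of choroid plexus and ependyma, the lining of the ventricles, showed 1 library far above the rest. Their summed level ran from 4338 to 43197 CPM at ZT0 and from 4871 to 9610 CPM at ZT12, and the median was 5284 CPM at ZT0 and 6215 CPM at ZT12. The ratio of miR-204 was 0.46 ± 0.34 (SE; edgeR adjusted p = 0.741). Without ZT0 replicate 1 it turned to -0.27 (adjusted p = 0.366), since the other 11 ZT0 libraries averaged 4511 ± 444 CPM (SD). miR-448, miR-1298 and miR-1264, named after their values were seen, were also highest in that library, at 528, 6103 and 111 CPM, against at most 112, 1406 and 29.3 CPM elsewhere. miR-34c, known from ciliated cells, had -0.11 ± 0.26, with 10 of 12 ZT0 libraries below the ZT12 median; without ZT0 replicate 1 its ratio was -0.45 (edgeR adjusted p = 0.408), and with the inferred run as a term 0.23. Of the 6 members tested 0 were called, against 0.265% over all tested. Their ratios ran from -0.68 to 0.71, 3 positive and 3 negative, with a median of 0.0888. By edgeR 1 higher and 1 lower at ZT0 had an unadjusted p under 0.05, against 7.94% over all tested.

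miR-211, which shares its seed with miR-204, was not highest in the same library, ZT0 replicate 1. It was high there too, at 33.7 CPM, above every ZT12 library. It had 6.11, 16.1 and 44.7 CPM as the lowest, median and highest value at ZT0 and 7.48, 12.0 and 19.9 CPM at ZT12. In 5 ZT0 libraries it was above every ZT12 library and in 1 below them all, and its highest level was in ZT0 replicate 3, where miR-204 stood at 5322 CPM. miR-211 lies in an intron of Trpm1 on chromosome 7 and miR-204 in an intron of Trpm3 on chromosome 19.

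Hairpins whose sequence lies in ribosomal RNA repeats rise with breakdown of that RNA. Of the 5 listed, 2 were among the 1226 hairpins, and both were tested. Of these 0 were called, against 0.265% over all tested. Both had a positive ratio, as did 209 of 378 over all tested. By edgeR 1 of the 2 had an unadjusted p under 0.05, against 7.94% over all tested. miR-6240 had 103, 374 and 1821 CPM as the lowest, median and highest value at ZT0 and 105, 264 and 743 CPM at ZT12, and the ratio of miR-6236 was 0.49 ± 0.30 (SE; edgeR adjusted p = 0.641). Their sum ran from 858 to 8546 CPM at ZT0 and from 762 to 3652 CPM at ZT12, with the top value in ZT0 replicate 5. Without that library the ratio was 0.60 for miR-6240 and 0.19 for miR-6236, and with the inferred run as a term 0.10 for miR-6240 and -0.04 for miR-6236. In ZT0 replicate 5 miR-5099 stood at 62.8 CPM, within the range of the other ZT0 libraries. The part of RNA breakdown in the miR-5099 difference was not tested.

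miRNAs linked to the clock in other studies showed no called difference. Of 29 tested, edgeR called 0, as did DESeq2, and 3 had an unadjusted p under 0.05, the members of the miR-183 cluster, which are in this list too; over all tested 0.265% were called and 7.94% had such a p. Their median log2 ratio was 0.0128, against 0.0163 over all tested. miR-132, induced by neuronal activity, had 6653, 10324 and 16893 CPM as the lowest, median and highest value at ZT0 and 8299, 10375 and 14911 CPM at ZT12, with a ratio of 0.05 ± 0.12 (SE) and a 95% interval of -0.19 to 0.29. miR-219a-2, made by oligodendrocytes, had 0.07 ± 0.06 (-0.05 to 0.20).

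Nor were miRNAs of neuronal activity and of sleep called. Of 7 activity-linked miRNAs edgeR called 0, with none at an unadjusted p under 0.05, against 0.265% called and 7.94% at such a p over all tested; their median was 0.0285. miR-212, transcribed with miR-132, had 1980 ± 312 CPM at ZT0 and 1794 ± 139 CPM at ZT12 (SD, n = 12 each), a ratio of 0.14 ± 0.07 (SE; 95% interval -0.01 to 0.30). Of 5 miRNAs that changed with sleep or sleep loss in rat brain in other studies 0 were called, and miR-125a had an unadjusted p under 0.05. Of 3 oligodendrocyte miRNAs 0 were called, and miR-338 had 0.13 ± 0.06 (-0.0020 to 0.26). Of 4 neuroendocrine miRNAs 0 were called, with miR-7a-1 at 0.12 ± 0.05 (0.01 to 0.23; adjusted p = 0.582) and miR-375 at -0.09 ± 0.17 (-0.45 to 0.26). miR-146a, a miRNA of inflammation, had one of the larger ratios among abundant hairpins, 0.38 ± 0.28 (adjusted p = 0.741), but 0.01 with the inferred run as a term, 0.0027 in the shared runs alone and 0.68 in limma voom with quality weights.

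The families with the most members in cortex were also close to 0. The miR-379/410 cluster had a median of 0.00872 over 32 members (2 at an unadjusted p under 0.05, both higher at ZT0), the anti-Rtl1 group of the same region, which includes miR-127 and miR-434, of -0.0271 over 9, let-7 of -0.0188 over 12, miR-30 of 0.0293 over 7, miR-29 of -0.0105 over 4 and miR-15/16 of -0.0401 over 7. Neuronal miRNAs had -0.0148 over 9, white blood cell and microglia miRNAs 0.0373 over 6, vessel miRNAs -0.0300 over 3 and liver miRNAs 0.0748 over 4. None of the members of these lists was called (0.265% over all tested).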

How the data were processed

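The authors deposited whole-number counts per miRBase hairpin and library, not normalized. Tools named in the submitters' processing notes are HTSeq 0.10.0 and STAR 2.7.3a, on GRCm38 (mm10). Per the labels, total RNA from a column kit was enriched for small RNA and sequenced by an Illumina protocol. Trimming, the miRBase release and the treatment of reads that match several places are not given in the sources used here. A hairpin count adds both mature arms.

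Groups follow the labelled tissue and time point, and ZT is the time point modulo 24 h. Counts were tested in edgeR 4.0.16 (R 4.3.3) with TMM scaling, filterByExpr (minimum count 10) and quasi-likelihood F tests over the 24 libraries, with Benjamini-Hochberg adjustment and a threshold of 0.05. SEs and 95% intervals come from coefficients without shrinkage. Tissue differences were fitted with the animal code as a block. DESeq2 1.42.0 and limma 3.58.1 voom were alternatives. The code was tested on simulated data. Positions and sequences are from RefSeq GRCm38.p6 and overlaps from GENCODE M21. Plots used Python 3.11.15 and matplotlib 3.10.9.

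Named hairpins were those called, the 12 with the smallest p (mean CPM of at least 10), the 6 with the largest ratios (at least 100), the 5 most abundant and the 2 most abundant of each of 20 lists. The lists of which the latter are given with values were chosen after their values were seen, as were miR-135a-1, miR-181a-1 and the markers of single libraries. The members and lists were chosen with earlier results of these data known. Tables of cortex, hypothalamus, striatum and liver were scaled separately for levels.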

Additional observations from a re-analysis of the deposited data

Results flagged for a closer look

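For the 12 hairpins with the smallest p, in 4 of the 50 sets of libraries looked at, 1 library lay farther from the others of its time point than Dixon's test allows at its 95% level. Chance alone flags about 1 set in 20. miR-181a-2 at 24 h had its lowest value, 276.0 CPM, in ZT0 replicate 2, against 344 to 370 CPM in the other 5. miR-6240 at 12 h had 742.6 CPM in ZT12 replicate 12, against 134 to 340 CPM in the other 5. miR-96 had 19.2 CPM in ZT0 replicate 3 at 24 h, against 2.40 to 5.82 CPM, and 78.1 CPM in ZT12 replicate 4 at 36 h, against 1.62 to 15.2 CPM. miR-5099 had no such library in cortex or striatum; its groups of 12 in hypothalamus and liver were not examined this way.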

How the results depend on the processing

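miR-5099 was lower at ZT0 in 36 of 36 alternatives, with a log2 ratio from -0.50 to -0.40, and was called in 35. The alternatives used these same libraries or most of them, and the groups did not overlap, so the shared direction is no separate support. The call ended with ZT0 replicate 1 and ZT12 replicate 4 left out and run as a term, chosen after the data were seen, which called 0 hairpins (adjusted p = 0.116, 12 at an unadjusted p under 0.05). DESeq2 and the other alternatives called 1 hairpin, except limma voom with quality weights, which called 2 (with miR-181a-2), and the fit without ZT12 replicate 7, which also called 2 (with miR-135a-2), so that leaving out 1 library each gave 1 to 2. In the second collection no filter on low counts gave 0 calls, and the cortex and hypothalamus comparison without the animal block gave 1. The number of intervals within 1.5-fold stayed within 1.5 times of 328. Replicate numbers are shared by the groups, though each library has its own animal code. Libraries of the same number were somewhat alike (median r 0.309, range -0.486 to 0.512 over 12 pairs, 9 above 0.1, 3 closest to their own number). With the replicate number as a block edgeR called 1 hairpin, miR-5099 (-0.45, adjusted p = 0.00105).

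Ratios that changed sign were of hairpins that were not called, and the cause was not tested. With library totals they were miR-127 (-0.0056), miR-181a-1 (-0.017) and miR-132 (-0.00095). miR-204 turned to -0.26 in DESeq2, -0.21 in limma voom, -0.047 with the replicate block and -0.29 without the 3 libraries that stood apart; miR-132 was -0.00065 in limma voom. With run as a term, and then in the shared runs alone, the ratios were -0.020 and -0.032 for miR-212, -0.029 and -0.041 for miR-27b, -0.036 and -0.045 for miR-6236, -0.13 and -0.14 for miR-135a-1, -0.019 and -0.031 for miR-30a, 0.17 and 0.16 for miR-375, 0.23 and 0.22 for miR-34c, -0.077 and -0.090 for miR-181a-1, and -0.046 and -0.058 for miR-132. Without ZT0 replicate 1 and ZT12 replicate 4 and with run as a term they were -0.16 for miR-6240, -0.013 for miR-598, -0.031 for miR-125a, -0.0023 for miR-26b, -0.049 for miR-338, -0.0011 for miR-212, -0.29 for miR-6236, -0.0096 for miR-146a, -0.32 for miR-204, -0.019 for miR-434, -0.017 for miR-30a and -0.020 for miR-181a-1. With 1 library left out, miR-204 ran from -0.27 to 0.53, miR-181a-1 from -0.00074 to 0.079 and miR-132 from -0.023 to 0.11. Depth limits what low hairpins can show: 848 hairpins, 506 of them with counts and none above a mean of 9.39 CPM, were not tested.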
